A study of Arabidopsis thaliana with 18 samples.

Results

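Defensin-like genes encode small secreted peptides held together by disulfide bonds between cysteines, and Arabidopsis carries several families of them. The set described here holds the genes whose symbol is PDF (plant defensin), LCR (low-molecular-weight cysteine-rich) or SCRL (S-locus cysteine-rich-like) followed by a number. By this rule 83 of the 16550 genes with a probe set of their own were members, each measured by 1 probe set. They comprise 7 genes of PDF class 1, 6 genes of PDF class 2, 58 other LCR genes and 12 SCRL genes. The RefSeq gene table of assembly TAIR10.1 lists 117 genes that meet the rule, and the others are not analysed here.

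Plant defensins of class 1 are known for antifungal activity, and PDF1.2 is the common leaf marker of jasmonate and ethylene defence signalling. LCR and SCRL genes were named for their likeness to cysteine-rich peptides of the pollen coat, among them the SCR ligand by which Brassica stigmas recognise self pollen, and many are known from flowers and seeds. The questions addressed were which of these genes gave a signal above background in root tips, and which of them changed when the peptide TOLS2 was added. TOLS2 is itself a small secreted peptide, known to limit lateral root formation through the receptor kinase RLK7, with the transcription factor PUCHI acting downstream.

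The study hybridised 18 single-colour arrays, 3 for each of 6 groups, and its titles number them as biological replicates. Seedlings 5 days old spent 3 h on medium with 1 µM TOLS2 or without it (control), per the labels, and each sample pooled the terminal 1 cm of some 80 roots. The groups were rlk7-3 with TOLS2 and rlk7-3 control, puchi-2 with TOLS2 and puchi-2 control, and wild type with TOLS2 and wild type control. The labels name the mutant lines without giving the lesion, and no allele or agent beyond these is given for any group. No probe set was named RLK7. PUCHI had a mean signal of 6.25 ± 0.09 on puchi-2 TOLS2 arrays and 5.31 ± 0.23 on puchi-2 control arrays, against 6.52 ± 0.07 on wild type TOLS2 arrays and 4.56 ± 0.37 on wild type control arrays (SD, n = 3 each). The PUCHI signal of this line was thus not low, and its arrays are called puchi-2-labelled throughout.

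The values are log2 signals, deposited after RMA normalization. Array medians lay between 6.19 and 6.30, and the lowest correlation between any pair of arrays was 0.983. Of 26 root genes listed as a tissue check 4 were measured, and all 4 were bright: PYK10 at 13.11, EXPA18 at 11.00, EXPA7 at 8.96 and LBD16 at 8.29. Of 5 shoot genes the only one measured was RCA, the activase of Rubisco, with a mean of 7.60. Of 47 listed genes known from pollen, anther or seed 15 were measured, that is, had a probe set annotated with that gene alone. The background level was taken as the 90th percentile of their mean signals, which came to 5.09. Those 15 genes ranged from 2.02 to 7.54, so the level is a working threshold and not a detection call. A probe set's brightness depends on its probes as well as on the RNA, so levels of different genes are set against the threshold only and are not ranked as abundances.

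Most defensin-like genes were not above background in root tips. The mean over the 18 arrays was above 5.09 for 6 of the 83 members (7.23%), against 9847 of the 16550 genes (59.5%). Of the members, 54 had a mean under 3 and 69 a mean under 4. The count was 5 with the median of all probe sets (6.03) or the 95th percentile of the pollen, anther and seed genes (5.89) as the threshold, 5 when every array had to exceed 5.09, and 8 with the 75th percentile (4.67).

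**Figure D1:**
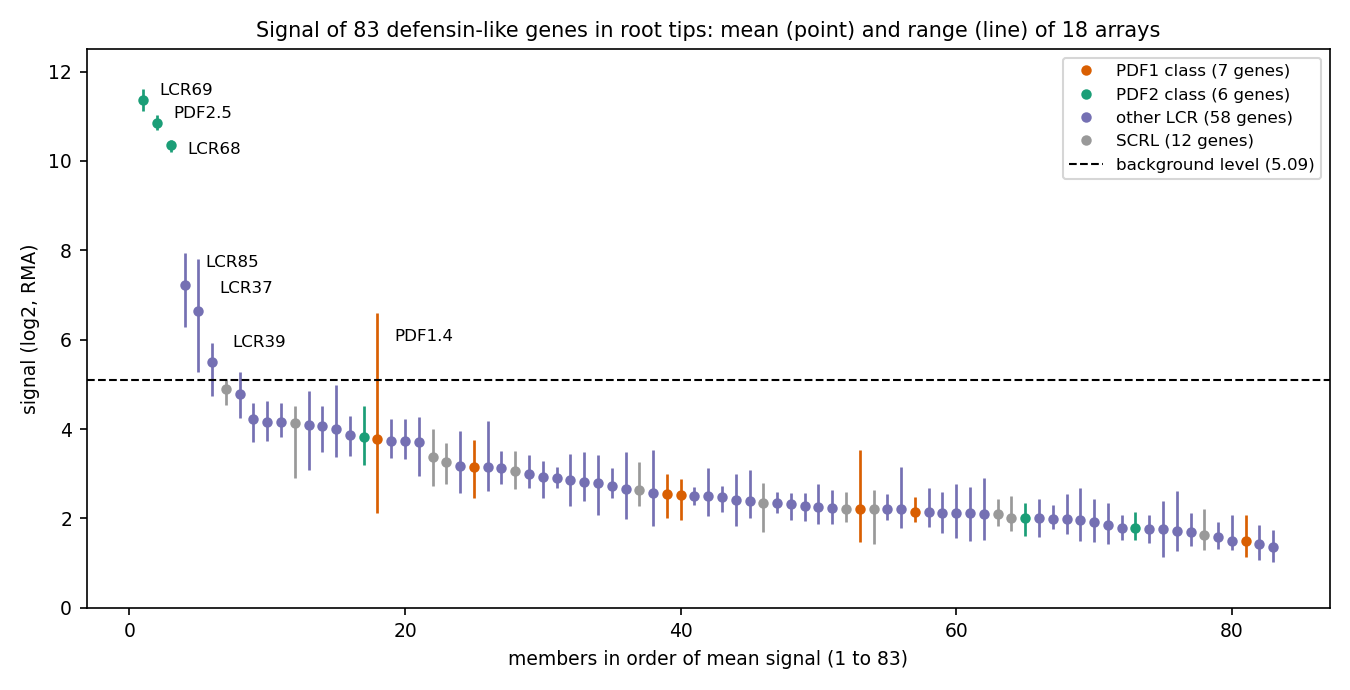
Log2 signal of the 83 defensin-like genes in order of their mean, as the mean (point) and range (vertical line) of 18 arrays, coloured by class, with the background level of 5.09 dashed. Of the class 2 defensins 3 of 6 lie above the line, all at 10.35 or higher, and 3 of 58 other LCR genes lie above it, while no class 1 defensin and no SCRL gene does.

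The genes above background fell into 2 of the 4 classes. Of the 6 class 2 defensins 3 were above background, all with a mean of 10.35 or higher. LCR69, which is PDF2.2 (AT2G02100), had a mean of 11.37 and ran from 11.12 to 11.60 over the 18 arrays. PDF2.5 (AT5G63660), described in Arabidopsis as a cadmium-binding defensin, had a mean of 10.86 and ran from 10.70 to 11.02. LCR68, which is PDF2.3 (AT2G02130) and has been described as a blocker of potassium channels, had a mean of 10.35 and ran from 10.20 to 10.48. Each of the 3 varied by less than 0.5 over genotypes and treatments together. The other class 2 members were not above background, with PDF2.1 at a mean of 3.83 and LCR72, which is PDF2.6, at 1.78.

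Of the 58 other LCR genes 3 were above background (5.17%). LCR85 (AT4G22210) had a mean of 7.22 with a range over the arrays of 6.29 to 7.93. LCR37 (AT4G13095) had a mean of 6.63 and the widest range of the 6, from 5.28 to 7.80. LCR39 (AT3G23167) had a mean of 5.49 and ran from 4.74 to 5.93, so that it lay on both sides of the threshold. Just under the threshold were SCRL20 at 4.89 and LCR46 at 4.78, whose highest arrays reached 5.13 and 5.27.

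No class 1 defensin and no SCRL gene had an 18-array mean above background. The 12 SCRL genes had a median of 2.49 and means between 1.63 and 4.89. The 7 class 1 defensins had a median of 2.53 and means between 1.5 and 3.77. Within class 1 the mean was 2.22 for PDF1.2, 3.16 for PDF1.2b, 1.5 for PDF1.2c, 2.54 for PDF1.3, 2.53 for PDF1.5 and 2.15 for LCR67, which is PDF1.1. The highest class 1 mean, 3.77, belonged to PDF1.4 (AT1G19610), whose signal depended on the treatment: counting a gene as above background where at least 1 of the 6 group means passed 5.09, an alternative chosen after seeing the data, added PDF1.4 and gave 7 members.

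Members that lie side by side in the genome did not all fall on the same side of the threshold. In the gene order of TAIR10.1, 39 of the 83 members stood in 14 clusters, defined as runs of members with at most 4 other genes between neighbours, and 2 of these clusters held a member above background. The cluster on chromosome 2 with LCR69, PDF2.1, LCR68, LCR72 and LCR73 spanned signals of 11.37, 3.83, 10.35, 1.78 and 4.17, 2 above the threshold and 3 below it. The other was the chromosome 3 pair of LCR39 at 5.49 and LCR42 at 1.79. The 7-gene cluster on chromosome 4 that holds LCR21 to LCR27 stayed between 1.36 and 3.73.

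PDF1.4 was the one member called with TOLS2. Its signal rose with TOLS2 in wild type and in the puchi-2-labelled line, and no response passed the test in rlk7-3. On rlk7-3 arrays, PDF1.4 read 3.00, 2.79 and 2.92 with TOLS2 (mean 2.90 ± 0.10), against 2.65, 2.12 and 3.04 in control (mean 2.61 ± 0.46; SD, n = 3 each). On puchi-2-labelled arrays it read 4.57, 5.57 and 5.64 with TOLS2 (5.26 ± 0.60), against 2.72, 2.62 and 2.66 in control (2.67 ± 0.05). On wild type arrays it read 5.10, 6.48 and 6.61 with TOLS2 (6.06 ± 0.84), against 3.44, 3.11 and 2.84 in control (3.13 ± 0.30). The TOLS2 and control arrays overlapped in rlk7-3 and were far apart in the other lines, and replicate 1 was the lowest of the TOLS2 arrays in both of those.

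The PDF1.4 change was 2.93 on the log2 scale in wild type (SE 0.36, limma adjusted p = 0.000309), or 7.61-fold. In the puchi-2-labelled line it was 2.59 (SE 0.36, adjusted p = 0.0012), or 6.04-fold. In rlk7-3 it was 0.30 (SE 0.36, adjusted p = 0.891). As the control signals lay under the background level and RMA shrinks differences of dim probe sets, these folds may understate the change in RNA. In rlk7-3 the TOLS2 signals lay under that level too, so a response there could have been missed. The arrays measure bulk tissue, in which a change in the number of cells of a type and a change in RNA per cell cannot be told apart.

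**Figure D2:**
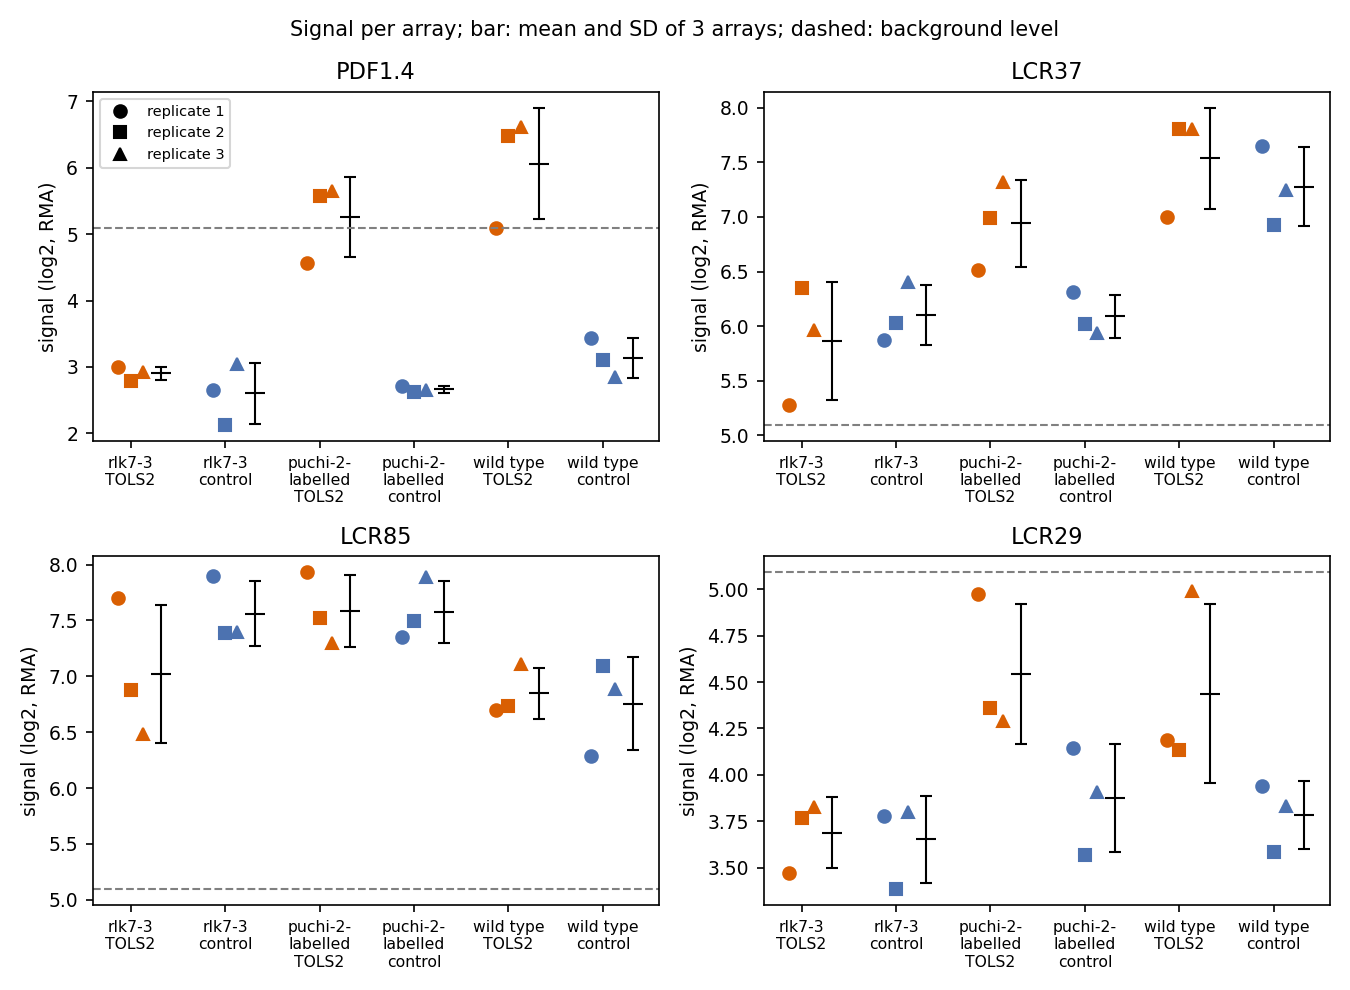
Log2 signal of each array for PDF1.4, LCR37, LCR85 and LCR29 (vertical axes, which differ between panels) in the 6 groups, with the replicate as the marker, the mean and SD of 3 arrays as bars and the background level of 5.09 dashed. PDF1.4 has group means of 5.26 and 6.06, above the line, with TOLS2 in the puchi-2-labelled line and wild type and lies at 3.13 or lower in the other 4 groups, and LCR37 is at 5.86 and 6.10 in rlk7-3 with TOLS2 and in control, against 7.54 and 7.28 in wild type.

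The difference between the responses was tested directly. The PDF1.4 response of rlk7-3 minus that of wild type was −2.63 (SE 0.50, adjusted p = 0.0357). This call was close to the threshold of 0.05: leaving out 1 array at a time, it was lost for 9 of the 12 arrays (adjusted p 0.0729 to 0.102), while the difference itself stayed between −3.11 and −2.36. It was kept without wild type control replicate 1, wild type TOLS2 replicate 1 or rlk7-3 control replicate 2. The response of the puchi-2-labelled line minus that of wild type was −0.33 (SE 0.50, adjusted p = 1.00), a difference smaller than its error, which does not show that the responses were alike. On the TOLS2 arrays alone, a comparison added after seeing the data, the PDF1.4 signal of rlk7-3 minus that of wild type was −3.16 (adjusted p = 0.000104). All rlk7-3 arrays lay below all wild type arrays there, as held for 5.17% of all probe sets. The same comparison gave −0.80 for the puchi-2-labelled line against wild type (adjusted p = 0.556).

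The counts stand against the following background. With TOLS2 in wild type 1 of 83 members was called, by limma at an adjusted p under 0.05, where 1.84% of the 17481 tested probe sets were called, and 9 members had an unadjusted p under 0.05, where 11.9% of all did. In rlk7-3 none of the 83 was called, where 0.00572% of all probe sets (1 of 17481) were, and 7 members had an unadjusted p under 0.05, where 7.18% of all did. In the puchi-2-labelled line 1 member was called, where 1.6% of all were, and 10 had an unadjusted p under 0.05, where 12.7% of all did. For the response difference of rlk7-3 from wild type 1 member was called, where 0.383% of all were, and 5 had an unadjusted p under 0.05, where 10.5% of all did. For that of the puchi-2-labelled line no member was called, where 0.0% of all were, and 4 members had an unadjusted p under 0.05, where 4.05% of all did. The single member behind each of these calls was PDF1.4, and 1 call among 83 is near the background share in wild type and the puchi-2-labelled line. The 3 tests of response share the wild type and mutant arrays with the tests of the differences.

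**Figure D3:**
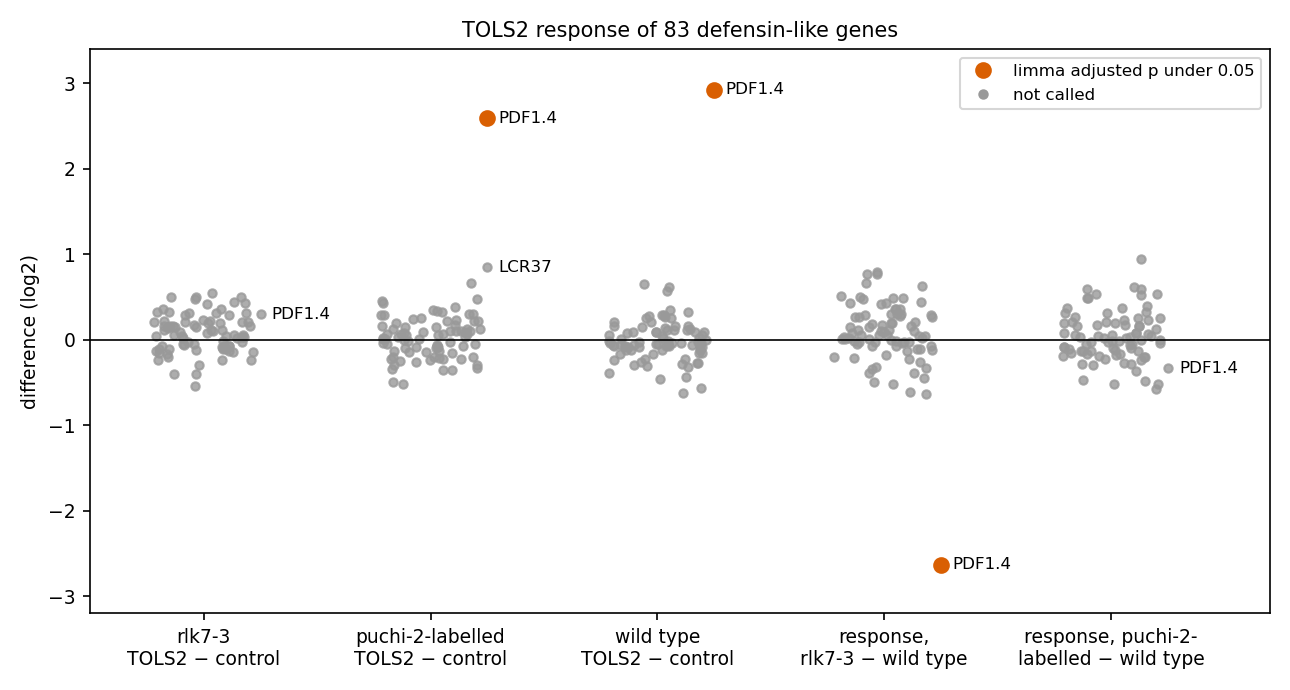
Difference on the log2 scale for each of the 83 defensin-like genes: TOLS2 minus control in rlk7-3, in the puchi-2-labelled line and in wild type, then the response of each mutant minus that of wild type. PDF1.4 stands apart at 2.59 in the puchi-2-labelled line, 2.93 in wild type and −2.63 for the rlk7-3 response difference, and the other members lie within 1 of zero.

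None of the 6 remaining class 1 defensins was called with TOLS2. Their changes lay between −0.16 and 0.47 in rlk7-3, between −0.51 and 0.48 in the puchi-2-labelled line and between −0.17 and 0.29 in wild type. The lowest adjusted p among them was 0.802 in rlk7-3, 0.225 in the puchi-2-labelled line and 0.596 in wild type. All 6 were under the background level.

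The 3 class 2 defensins above background showed changes of 0.23 or less in either direction. LCR69 changed by 0.12 in rlk7-3, −0.23 in the puchi-2-labelled line and −0.09 in wild type. PDF2.5 changed by 0.03, 0.07 and −0.01 in the same order of lines, and LCR68 by 0.04, −0.04 and −0.03. None of these passed the test, the lowest adjusted p being 0.331 for LCR69 in the puchi-2-labelled line. PDF2.1, which lies between LCR69 and LCR68 and was picked out after its values were seen, read 3.94, 3.84 and 4.38 with TOLS2 against 3.76, 3.44 and 3.33 in rlk7-3 control, and 4.17, 3.86 and 3.79 with TOLS2 against 3.20, 3.25 and 3.67 in wild type control. Its arrays did not overlap in those lines, but changes of 0.54 (adjusted p = 0.662) and 0.57 (adjusted p = 0.322) did not pass the test, nor did 0.34 in the puchi-2-labelled line (adjusted p = 0.625).

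Among the other LCR genes above background, TOLS2 gave no called change. LCR37 came nearest, in the puchi-2-labelled line, with 6.52, 6.99 and 7.32 with TOLS2 against 6.32, 6.02 and 5.94 in control. The change of 0.85 (SE 0.29) had an adjusted p of 0.195, and when replicate 1 was left out of every group it was 1.17 with an adjusted p of 0.0353. In rlk7-3 LCR37 changed by −0.24 (adjusted p = 0.892) and in wild type by 0.26 (adjusted p = 0.812). LCR85 changed by −0.54 in rlk7-3 (adjusted p = 0.741), 0.01 in the puchi-2-labelled line and 0.09 in wild type. LCR39 changed by −0.10, 0.45 and −0.08 in that order of lines, with an adjusted p of 0.458 for the middle one.

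The members with the smallest p among those not called are given for each line. In rlk7-3 these were LCR44 at 0.50 (adjusted p = 0.379), LCR49 at 0.41 (adjusted p = 0.47) and LCR81 at 0.32 (adjusted p = 0.617). LCR44 read 4.21, 4.52 and 4.49 on rlk7-3 TOLS2 arrays against 3.90, 3.95 and 3.89 on rlk7-3 control arrays, without overlap. In the puchi-2-labelled line they were LCR23 at −0.34 (adjusted p = 0.142), LCR37 as above and LCR29 at 0.67 (adjusted p = 0.208). LCR29 read 4.98, 4.36 and 4.29 with TOLS2 against 4.15, 3.57 and 3.91 in control in that line, and it changed by 0.65 in wild type (adjusted p = 0.232) and 0.04 in rlk7-3.

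In wild type the 3 smallest were decreases that did not pass: LCR32 at −0.62 (adjusted p = 0.124), LCR83 at −0.57 (adjusted p = 0.157) and SCRL20 at −0.27 (adjusted p = 0.215). LCR32 read 2.39, 2.78 and 2.46 with TOLS2 against 3.12, 2.89 and 3.48 in control. LCR83 read 3.39, 3.56 and 3.88 with TOLS2 against 3.94, 4.30 and 4.29 in control. SCRL20 read 4.74, 4.54 and 4.86 with TOLS2 against 4.91, 5.01 and 5.03 in control. The groups did not overlap for any of the 3, and all 3 were under the background level.

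Groups of arrays that do not overlap were also counted without a model. In wild type the TOLS2 arrays were all above the control arrays for 8 members (9.64%), where this held for 6.78% of all probe sets, and all below them for 3 members (3.61%), where it held for 12.0%. In the puchi-2-labelled line the counts were 6 higher (7.23%, against 7.38% of all) and 5 lower (6.02%, against 9.84% of all). In rlk7-3 they were 6 higher (7.23%, against 10.6% of all) and 0 lower (0.0%, against 1.6% of all). The median change with TOLS2 was 0.07 over the members in rlk7-3, beside 0.06 over all probe sets, then 0.04 beside −0.01 in the puchi-2-labelled line and −0.04 beside −0.04 in wild type.

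For LCR37 a genotype difference passed the test only in comparisons added after seeing the data. Its signal was lower in rlk7-3 than in wild type on TOLS2 arrays and on average over both treatments, where the difference passed the test, and on control arrays it did not pass. LCR37 read 5.28, 6.35 and 5.96 on rlk7-3 TOLS2 arrays (5.86 ± 0.54), against 7.0, 7.80 and 7.80 on wild type TOLS2 arrays (7.54 ± 0.46; SD, n = 3 each). In control it read 5.87, 6.03 and 6.41 in rlk7-3 (6.10 ± 0.27), against 7.65, 6.93 and 7.24 in wild type (7.28 ± 0.36). No rlk7-3 array reached the lowest wild type array.

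For LCR37 the rlk7-3 minus wild type difference was −1.17 on control arrays (SE 0.29, adjusted p = 0.303), which did not pass. The comparisons on TOLS2 arrays and over both treatments were added after seeing the data. On TOLS2 arrays it was −1.67 (SE 0.29, adjusted p = 0.00397), or 3.18-fold lower in rlk7-3, and over both treatments −1.42 (SE 0.21, adjusted p = 0.00114), or 2.68-fold lower. The TOLS2 array call was lost when only the 6 arrays compared were fitted (adjusted p = 0.0796), and the call over both treatments held in all 21 alternatives run (adjusted p 0.000294 to 0.00646). The response difference of rlk7-3 from wild type for LCR37 was −0.50 (adjusted p = 0.699), so a dependence of the genotype difference on TOLS2 was not shown.

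On puchi-2-labelled control arrays LCR37 read 6.32, 6.02 and 5.94 (6.09 ± 0.20), against the wild type control values above, without overlap, but the difference of −1.18 did not pass (adjusted p = 0.464). It was −0.59 on TOLS2 arrays (adjusted p = 0.59) and −0.89 over both treatments (adjusted p = 0.107). Both mutants are set against the same wild type arrays.

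**Figure D4:**
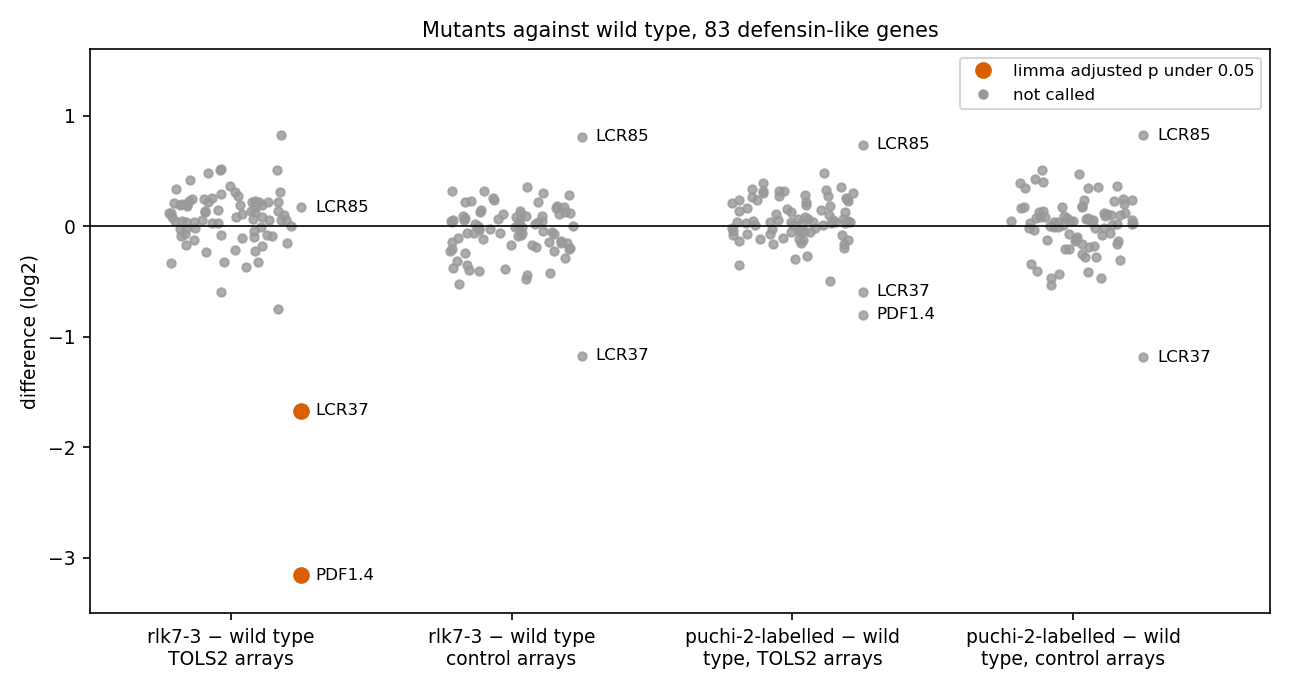
Difference on the log2 scale, mutant minus wild type, for each of the 83 defensin-like genes on TOLS2 arrays and on control arrays. LCR37 lies at −1.67 and PDF1.4 at −3.16 for rlk7-3 on TOLS2 arrays, both called, and LCR37 at −1.17 and −1.18 for the mutants on control arrays, not called.

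For LCR85 the differences had the opposite sign. It read 7.89, 7.39 and 7.40 in rlk7-3 control (7.56 ± 0.29) and 7.35, 7.49 and 7.89 in the puchi-2-labelled control (7.58 ± 0.28), against 6.29, 7.09 and 6.88 in wild type control (6.75 ± 0.42). All control arrays of either mutant lay above all wild type control arrays, but the differences of 0.81 (adjusted p = 0.524) and 0.82 (adjusted p = 0.67) did not pass. With TOLS2 the difference was 0.17 for rlk7-3 (adjusted p = 0.773) and 0.74 for the puchi-2-labelled line (adjusted p = 0.477). Over both treatments it was 0.49 (adjusted p = 0.223) and 0.78 (adjusted p = 0.15).

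On control arrays no member was called in rlk7-3 against wild type, where 0.0515% of all probe sets were called, and 6 members had an unadjusted p under 0.05, where 7.4% of all did. None was called in the puchi-2-labelled line against wild type, where 0.0172% of all were, and 10 members had an unadjusted p under 0.05, where 6.25% of all did. On TOLS2 arrays 2 members, PDF1.4 and LCR37, were called lower in rlk7-3, where 4.21% of all probe sets were called in either direction, and 13 had an unadjusted p under 0.05, where 20.1% of all did. Over both treatments the same 2 members were called in rlk7-3, where 3.28% of all were, and 9 had an unadjusted p under 0.05, where 17.3% of all did. In the puchi-2-labelled line no member was called on TOLS2 arrays, where 0.0744% of all were, and 8 had an unadjusted p under 0.05, where 8.66% of all did. Over both treatments none was called in that line, where 0.194% of all were, and 9 had an unadjusted p under 0.05, where 10.9% of all did.

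Counted without a model, the rlk7-3 TOLS2 arrays were all above the wild type TOLS2 arrays for 5 members (6.02%, against 18.7% of all probe sets) and all below them for 6 (7.23%, against 5.17% of all). On control arrays rlk7-3 was above wild type for 3 members (3.61%, against 5.98% of all) and below it for 7 (8.43%, against 9.46% of all). The puchi-2-labelled TOLS2 arrays were above the wild type TOLS2 arrays for 9 members (10.8%, against 7.63% of all) and below them for 2 (2.41%, against 5.74% of all). On control arrays that line was above wild type for 5 members (6.02%, against 6.44% of all) and below it for 7 (8.43%, against 6.73% of all).

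Genes for small secreted peptides with symbols outside the rule (CLE, RALFL, EC1, LURE1, IDL, RTFL and DVL) were looked at beside the set. Both lists were made by symbol, so they do not separate defensin-like peptides from others. Of these 50 measured genes 22 were above background, where 59.5% of all genes were. The list overlaps the genes that set the background level, as EC1.1, EC1.2, EC1.3 and EC1.5 belong to both. With TOLS2 0 of them were called by limma in any line, where 0.00572% of all probe sets were called in rlk7-3, 1.6% in the puchi-2-labelled line and 1.84% in wild type. An unadjusted p under 0.05 was found for 5 in rlk7-3 (7.18% of all), 4 in the puchi-2-labelled line (12.7% of all) and 6 in wild type (11.9% of all). Their largest change in wild type was 0.73. On TOLS2 arrays 3 of them were called in rlk7-3 against wild type, where 4.21% of all were, with RALFL18, of the family of rapid alkalinization factors, at −1.15 (adjusted p = 0.0155), IDL4, a relative of the abscission peptide IDA, at −0.45 (adjusted p = 0.0358) and CLE1, of the family that includes the meristem peptide CLV3, at 0.58 (adjusted p = 0.0475). Over both treatments 2 were called in rlk7-3 against wild type, where 3.28% of all were, with RALFL18 at −0.89 (adjusted p = 0.0108) and IDL4 at −0.35 (adjusted p = 0.0256). In the puchi-2-labelled line 1 was called over both treatments, where 0.194% of all were, with IDL4 at −0.42 (adjusted p = 0.0482).

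Of 28 listed defence marker genes 3 were measured, and none was called with TOLS2. The thionins THI2.1 and THI2.2, which like PDF1.2 are cysteine-rich defence peptides, had mean signals of 2.83 and 2.1, both under the background level. EIN3, a transcription factor of ethylene signalling, had 10.04. The changes of THI2.1, THI2.2 and EIN3 in wild type were −0.12, −0.26 and 0.01. With so few genes measured, and only EIN3 above background, a defence response to TOLS2 was not tested.

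The shoot gene RCA had a lower mean with TOLS2 in the lines in which PDF1.4 rose, a change called in wild type only. It read 7.80 ± 0.25 with TOLS2 against 7.77 ± 0.17 in rlk7-3 control, 7.14 ± 0.25 with TOLS2 against 7.64 ± 0.12 in the puchi-2-labelled control, and 7.30 ± 0.15 with TOLS2 against 7.95 ± 0.16 in wild type control (SD, n = 3 each). The change of −0.65 in wild type was called (adjusted p = 0.0355), and those of −0.51 in the puchi-2-labelled line (adjusted p = 0.117) and 0.03 in rlk7-3 were not. The TOLS2 and control arrays of RCA did not overlap in the lines in which PDF1.4 rose. The same held, with TOLS2 lower, for 12.0% of all probe sets in wild type and 9.84% in the puchi-2-labelled line. The part of RCA-expressing cells in the PDF1.4 result was not tested. Of the 4 root genes measured, LBD16, a transcription factor of lateral root initiation, rose with TOLS2 in the same lines as PDF1.4. It read 8.03 ± 0.17 with TOLS2 against 7.99 ± 0.11 in rlk7-3 control, 8.39 ± 0.06 with TOLS2 against 7.87 ± 0.04 in the puchi-2-labelled control, and 9.30 ± 0.08 with TOLS2 against 8.18 ± 0.08 in wild type control (SD, n = 3 each). The changes were 0.05 in rlk7-3 (adjusted p = 0.938), 0.52 in the puchi-2-labelled line (adjusted p = 0.00498) and 1.12 in wild type (adjusted p = 2.9e-06). The LBD16 response difference of rlk7-3 from wild type was −1.08 (adjusted p = 0.000425). That of the puchi-2-labelled line from wild type was −0.60 and did not pass (adjusted p = 0.709). Mutant minus wild type on TOLS2 arrays, a comparison added after seeing the data, LBD16 was at −1.27 for rlk7-3 (adjusted p = 7.65e-07). It was at −0.91 for the puchi-2-labelled line (adjusted p = 0.000224), where PDF1.4 was not called. The part of LBD16 and of the cells that express it in the PDF1.4 result was not tested. The other 3 root genes were not called with TOLS2 in any line.

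None of the 15 pollen, anther and seed genes was called in any of the 3 TOLS2 comparisons. Of all probe sets, 0.00572% were called in rlk7-3, 1.6% in the puchi-2-labelled line and 1.84% in wild type. An unadjusted limma p under 0.05 was found for 4 of the 15 in rlk7-3, where 7.18% of all had one, so above that share. The counts were 2 in the puchi-2-labelled line (12.7% of all) and 0 in wild type (11.9% of all).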

How the data were processed

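Total RNA of root tips was hybridised to single-colour arrays. The authors deposited 1 log2 signal per probe set and array, which RMA had produced, per the submitters' processing notes. The genome build, like the RMA version and the probe set definition, is not given in the sources used here. RMA forces a common distribution on all arrays and shrinks differences of dim probe sets. The files carry no detection call, and the number of arrays limits the precision. The table holds 38408 rows, ranging from 0.38 to 13.98. The platform annotation gave 1 gene for 16722 rows, several for 759 and none for 20927. The 17481 rows with a gene were tested, and symbols were updated through RefSeq (16574 of the 1-gene rows matched, and all 83 members).

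Arrays were grouped by their titles, and no pair held equal values. The replicates are samples the labels call biological, and p-values rest on the spread between them. That spread is pooled over all 6 groups, including groups not compared, and moderated over probe sets. A model with 6 group means over 18 arrays was fitted with limma 3.58.1 (lmFit, eBayes) in R 4.3.3 and tested on simulated data. There a log2 change of 1 was recovered for 91 of 100 rows in the wild type response. For the rlk7-3 response difference it was recovered for 79 of 100. A change of 0.5 was recovered for 54 of 100 and 30 of 100, so changes of that size were often missed. P-values are two-sided, adjusted by Benjamini-Hochberg over the 17481 rows and called under 0.05. There were 7 planned comparisons, and each mutant against wild type on TOLS2 arrays and over both treatments was added after seeing the data.

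Named genes are members called in a comparison, members above background, the 3 smallest p not called per TOLS2 comparison, those next to the background level, and called genes of the side lists. The members and lists were chosen with earlier results of these data known, so list counts support nothing independently. Alternatives covered normalization, variance prior, array weights, replicate block, filters, the arrays fitted and arrays left out. Same-numbered arrays of each line with and without TOLS2 did not all correlate above 0.1 in their deviations from the group means, so the numbers were not used as pairs there. For TOLS2 arrays of the puchi-2-labelled line and wild type, the 3 correlations were 0.348, 0.148 and 0.181, and the fit with the block called 0 members there too.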

Additional observations from a re-analysis of the deposited data

Results flagged for a closer look

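The TOLS2 response of PDF1.4 was called different between rlk7-3 and wild type in the main fit. The difference itself, rlk7-3 minus wild type, was −2.63 on the log2 scale (limma adjusted p = 0.0357). All 3 rlk7-3 TOLS2 arrays lay below all 3 wild type TOLS2 arrays, as held for 5.17% of all probe sets. That count uses the same TOLS2 arrays and leaves out the controls. Leaving out 1 array at a time, the call was lost for 9 of the 12 arrays, and the difference stayed between −3.11 and −2.36.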

How the results depend on the processing

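The PDF1.4 response to TOLS2 stayed called in all 14 alternatives in which it was tested, at 2.40 to 2.97 in the puchi-2-labelled line (adjusted p 0.00012 to 0.0334) and 2.65 to 3.57 in wild type (adjusted p 2.53e-05 to 0.0261). Its rlk7-3 response difference kept its sign in all 20 (−3.29 to −2.36) but lost its call in 11 (adjusted p 0.063 to 0.102). For that comparison the count of called members was 0 with all rows of the table tested and 0 with only the groups compared, and 0 to 1 leaving out arrays. With a filter on dim probe sets 5 members remained and PDF1.4 was not tested. The count was then 0 with TOLS2 in wild type, in the puchi-2-labelled line and for the rlk7-3 response difference. PDF1.4 had been the only member called in these comparisons. LCR37 alone was then called in rlk7-3 against wild type on TOLS2 arrays (1) and over both treatments (1), and in the puchi-2-labelled line over both treatments (1, change −0.89, adjusted p = 0.0452). Array weights called it there too (1, change −0.92, adjusted p = 0.0257). Fitting only the groups compared left 1 called member, PDF1.4, in rlk7-3 against wild type on TOLS2 arrays. Leaving out arrays gave 1 to 2 called members with TOLS2 in the puchi-2-labelled line and 1 to 2 in wild type: LCR37 was added without the replicate 1 arrays, SCRL24 (−0.53, adjusted p = 0.0408) without the puchi-2-labelled control replicate 3, and LCR61 (−0.81, adjusted p = 0.0346) in wild type without the replicate 1 arrays. LCR63 was called higher in rlk7-3 than in wild type without rlk7-3 TOLS2 replicate 2, at 1.1 on TOLS2 arrays (adjusted p = 0.0298) and 0.71 over both treatments (adjusted p = 0.0408). LCR85 in rlk7-3 against wild type on TOLS2 arrays, not called, ranged from −0.17 (without rlk7-3 TOLS2 replicate 1) to 0.44 leaving out single arrays, and was −0.24 without the replicate 1 arrays. Where no value shows it, the cause was not tested. The replicate block gave the same counts of called members, 1 with TOLS2 in wild type, 0 in rlk7-3, 1 in the puchi-2-labelled line and 1 for the rlk7-3 response difference, and it changed no other call. Every member has 1 probe set, so averaging probe sets per gene gave no new value. Of 1074 alternative values for 66 gene results, 1053 were counted as kept, 12 lost a call, 3 gained one, 4 moved further and 2 reversed. For called results, the smallest p not called and some LCR37 and LCR85 comparisons, kept meant the same direction and side of the threshold. For the other results, none of them called, it meant a move within 1 within-group SD and no call gained. A change of sign there counted as kept, as for LCR39 with TOLS2 in wild type (−0.26 to 0.16). For the 77 members under the background level the arrays limit what can be seen.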
